A study of Mus musculus with 32 samples.

Results

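YUMM3.3 is a cultured mouse melanoma cell line, and the data described here compare YUMM3.3 cells exposed to interferon-γ (IFN-γ) for 12 h with untreated cells kept for the same time. The comparison was chosen by its labels: the 4 wells treated with IFN-γ at 20 ng/ml and the 4 wells with no treatment (NT) at 12 h, which are 8 of the 32 wells of the series. The other 24 wells hold the same treatments at 4 h, Activin-A at 40 ng/ml at either time, and both factors together. Cells grew in 6-well plates, each well is 1 library of bulk RNA barcoding and sequencing (BRB-seq, a method that tags the mRNA of many wells and sequences them in 1 pool), and the values are raw read counts per gene. All 8 wells hold 1 cell line, with no immune or stromal cells added. The labels do not say that wells came from separate experiments, so the p-values measure only the spread between wells.

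IFN-γ is a cytokine made mainly by T cells and NK cells. It binds a receptor built from Ifngr1 and Ifngr2, whose kinases Jak1 and Jak2 activate transcription factors of the STAT family. These bind GAS sites in target promoters and raise, among other genes, Irf1, a factor that binds ISRE sites and carries the response to a later set of genes. In tumor cells the response is known above all for antigen presentation on MHC class I, for antiviral and cell-autonomous defense genes, and for growth arrest.

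Each well held 853021 to 1285540 counts, with a median of 1005602 untreated and 958651 with IFN-γ, and 11362 to 11653 genes had at least 1 count. A gene with 3 counts in a well stood at 2.33 to 3.52 CPM (counts per 1000000 counts of the well), the upper limit that a count of 0 allows, for counting error only. Mitochondrial mRNAs took 1.08 to 1.40% of the counts and ribosomal protein mRNAs 8.41 to 9.54%, with the untreated wells at 8.91 to 9.54% and the IFN-γ wells at 8.41 to 9.18%. The label of a melanoma line was checked against markers. Pigment genes were detected in every well, with 92 to 149 counts of Pmel, 73 to 132 of Tyrp1 and 58 to 94 of Dct, whereas the lineage factor Mitf had 5 to 9 counts and Sox10 11 to 22. Of 32 melanocyte and neural crest genes listed, 29 were among the genes counted and 16 passed the filter on low counts. The leukocyte gene Ptprc had 1 to 5 counts and the macrophage gene Csf1r 0 to 1. Of the 20 immune cell markers listed, 6 were among the genes counted and none passed the filter. The MHC class II genes Cd74 and H2-Aa, which were not among these markers, were detected at 150 and 47.6 CPM untreated. A CPM is a share of a well's mRNA, so that fewer cells and less RNA per cell cannot be told apart.

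At 12 h, 577 genes were higher and 253 were lower with IFN-γ among 8971 genes tested. This is 9.25% of the genes tested in all, 6.43% higher and 2.82% lower (edgeR quasi-likelihood test, Benjamini-Hochberg adjusted p under 0.05). The response was lopsided in size as well as in number. Among the higher genes the median log2 fold change (log2FC) was 0.76, and 220 genes (2.45% of those tested) rose at least 2-fold, 112 at least 4-fold and 59 at least 8-fold by the fitted change. Among the lower genes the median log2FC was -0.44, 20 genes (0.223%) fell at least 2-fold, and none fell 4-fold. The median log2FC of all genes tested was -0.01. The 4 IFN-γ wells lay wholly above or wholly below the 4 untreated wells for 511 of the 577 and 193 of the 253, while over all genes tested 7.8% lay wholly above and 4.73% wholly below. The calls of lower genes were the more sensitive to the test: DESeq2 called 144 genes lower and 444 higher, all of them among those of edgeR. Errors on a log2FC below are standard errors, levels are means ± SD over 4 wells, and adjusted p values are those of edgeR over all genes tested.

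**Figure D1:**
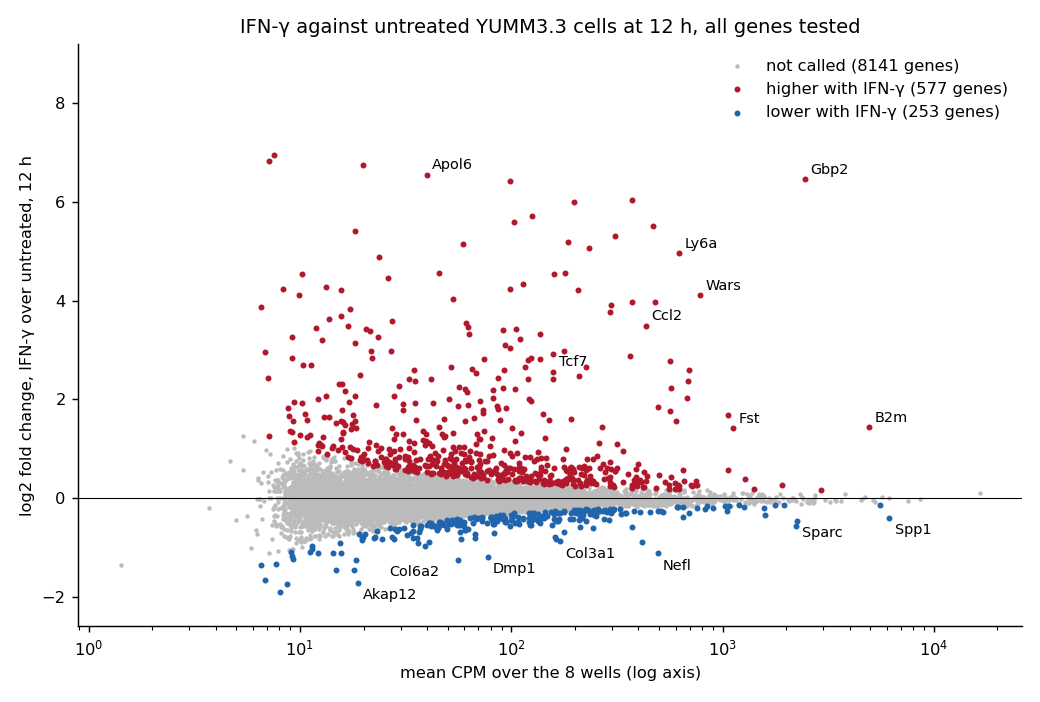
Each point is 1 of the 8971 genes tested, with its mean CPM over the 8 wells on a log axis and its log2 fold change, IFN-γ over untreated, on the vertical axis. Higher genes in red reach well above 4 on the log2 scale, whereas no lower gene in blue is below -2. Sparc and Spp1 fell at high levels where small changes can be called, while Nefl dropped by 54.1%.

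Of 13 interferon regulatory factors and co-activators tested, 10 were higher (76.9%) and none lower. Here and below a percentage after such a count is the share of the list's tested genes, to be read against the 6.43% higher and 2.82% lower over all genes. Irf1 stood at 42.02, 46.7, 38.6 and 54.1 CPM in untreated wells 1 to 4 and at 738, 681, 685 and 711 CPM in IFN-γ wells 1 to 4, and values per well are given in this order below. The IFN-γ wells lay far above the untreated ones without overlap (log2FC 3.96 ± 0.09, edgeR adjusted p = 4.5e-64). The receptor chains were not called: Ifngr1 was at 60.2 ± 8.76 CPM untreated and 45.2 ± 5.001 CPM with IFN-γ and Ifngr2 at 116 ± 15.3 CPM untreated and 93.6 ± 8.71 CPM with IFN-γ, with the IFN-γ wells below every untreated well for both but neither past the threshold (edgeR adjusted p = 0.0564 and 0.102). Jak1 was at 108 ± 14.2 CPM untreated and 103 ± 9.97 CPM with IFN-γ (log2FC -0.09 ± 0.11, edgeR adjusted p = 0.746). Jak2 was called higher (log2FC 0.67 ± 0.19, edgeR adjusted p = 0.0122), a call that was lost with DESeq2 (adjusted p = 0.0626) and without untreated well 1 (edgeR adjusted p = 0.0806). Stat2 and Stat3, which carry type I interferon and interleukin-6 type signals, rose with log2FC 2.14 ± 0.16 and 1.96 ± 0.12, and Irf9, the DNA-binding partner of Stat2 in the ISGF3 complex, with 1.97 ± 0.14. Of 22 tested genes of receptors, JAKs, STATs and their feedback, 8 were higher (36.4%) and 1 lower (4.55%), with a median log2FC of 0.24.

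The feedback inhibitors went in both directions. Socs1 and Socs3, which block JAK kinases after cytokine signals, rose from 32.02 ± 2.804 to 150.4 ± 19.4 CPM (log2FC 2.22 ± 0.14, edgeR adjusted p = 8.9e-28) and from 32.6 ± 6.81 to 114 ± 8.64 CPM (log2FC 1.79 ± 0.14, edgeR adjusted p = 1.9e-20). Usp18, which restrains type I interferon receptors, was at 26.9 ± 6.38 CPM untreated and 97.95 ± 26 CPM with IFN-γ (log2FC 1.88 ± 0.17, edgeR adjusted p = 1.6e-17). Socs2, a relative that restrains growth hormone and IGF signals, was the one member of this list that fell. Its wells were at 28.8, 20.7, 24.2 and 31.7 CPM untreated and 10.9, 11.5, 6.504 and 9.18 CPM with IFN-γ. Every IFN-γ well was below every untreated well, and the level dropped by 63.5% (log2FC -1.45 ± 0.27, edgeR adjusted p = 1.7e-05).

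Promoter sequences are shown for genes on both sides of this response, because their levels are among the values the comparison turns on. They are RefSeq promoters on build GRCm38.p6, from 250 bases before the transcription start to 50 after it, written 5′ to 3′ in the direction of the gene. Capitals mark matches to TTCNNNGAA (GAS, which reads the same on both strands), to GAAA repeats 2 bases apart on either strand (ISRE) or to TGANTCA (AP-1, on either strand). The Irf1 promoter, chr11:53769764-53770063 on the plus strand, has a GAS match that starts 90 bases before the transcription start.
Irf1: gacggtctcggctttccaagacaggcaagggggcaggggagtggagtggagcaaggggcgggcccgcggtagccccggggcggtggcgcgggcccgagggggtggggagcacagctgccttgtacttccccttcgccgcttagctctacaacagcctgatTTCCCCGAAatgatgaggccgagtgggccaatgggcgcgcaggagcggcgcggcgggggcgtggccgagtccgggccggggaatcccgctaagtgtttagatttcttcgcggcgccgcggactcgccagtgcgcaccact
The Socs3 promoter, chr11:117969317-117969616 on the minus strand, has a GAS match that starts 154 bases before the start.
Socs3: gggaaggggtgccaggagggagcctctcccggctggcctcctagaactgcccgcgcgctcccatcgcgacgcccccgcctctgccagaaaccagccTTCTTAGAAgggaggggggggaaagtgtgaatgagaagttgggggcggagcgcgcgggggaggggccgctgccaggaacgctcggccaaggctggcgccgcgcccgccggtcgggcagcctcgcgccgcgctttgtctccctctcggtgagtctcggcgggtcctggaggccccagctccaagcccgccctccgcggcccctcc
The Gbp2 promoter, chr3:142620413-142620712 on the plus strand, has an ISRE match starting 59 bases before the start and an AP-1 match at 102 bases.
Gbp2: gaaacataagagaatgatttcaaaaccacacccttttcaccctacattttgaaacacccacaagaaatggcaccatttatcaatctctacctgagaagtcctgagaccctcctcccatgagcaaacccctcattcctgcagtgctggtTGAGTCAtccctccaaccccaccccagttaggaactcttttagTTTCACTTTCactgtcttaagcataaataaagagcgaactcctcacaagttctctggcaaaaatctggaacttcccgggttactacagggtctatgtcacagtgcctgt
The B2m promoter, chr2:122147437-122147736 on the plus strand, has an ISRE match that starts 139 bases before the start.
B2m: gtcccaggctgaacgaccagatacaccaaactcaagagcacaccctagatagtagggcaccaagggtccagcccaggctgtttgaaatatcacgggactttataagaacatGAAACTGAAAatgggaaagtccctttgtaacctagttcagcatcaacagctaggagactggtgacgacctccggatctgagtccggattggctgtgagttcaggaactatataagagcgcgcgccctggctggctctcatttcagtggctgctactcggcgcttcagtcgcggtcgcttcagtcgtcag

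Motifs were counted in the promoters of both directions of change, with no test of the difference. RefSeq promoters were found for 472 of the 577 higher genes (623 promoters) and 191 of the 253 lower genes (251 promoters). An ISRE match was in 12.5% of the promoters of higher genes, in 1.59% of those of lower genes, in 3.14% of the 9203 promoters of genes tested and in 3.44% of all 32851 promoters in the table. Among promoters of genes that rose at least 2-fold the ISRE share was 26.4%. GAS matches were in 9.47% of promoters of higher genes, 3.98% of those of lower genes, 6.41% of those tested and 8.3% of all. AP-1 matches were in 8.19%, 7.17%, 4.77% and 7.81% of the same groups. The E-box CACGTG was in 6.26%, 7.57%, 10.4% and 7.15%. Outside the interferon gene lists, 7.72% of 531 promoters of higher genes held an ISRE match and 6.97% a GAS match. These are counts of letters in a 300-base window and say nothing of binding.

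The largest list median was that of the GTPases that attack pathogens in the cytosol. All 13 tested guanylate-binding proteins and immunity-related GTPases were higher, with a median log2FC of 5.3. Gbp2 stood at 66.1, 44.01, 41.9 and 65.8 CPM untreated and 4786, 4817, 4729 and 4992 CPM with IFN-γ, about 88-fold higher (log2FC 6.46 ± 0.07, edgeR adjusted p = 2.2e-91). Igtp was at 20.04 ± 3.33 CPM untreated and 918 ± 12.1 CPM with IFN-γ and Irgm1 at 58.7 ± 12.8 CPM untreated and 896 ± 34.9 CPM with IFN-γ. Several members were near or at 0 without IFN-γ, where a fitted fold depends on the fit. Tgtp1 had 0 or 1 count in each untreated well and 29 to 50 counts with IFN-γ, a ratio of 163 (95% interval 28.8 to 6483, exact Clopper-Pearson) by counting error alone. Gm4951 had 0 counts in all untreated wells and was at least 22.03-fold higher against a floor of 3 counts over the group. With it at that bound the list median was 5.07. Tgtp1 and Tgtp2 are near-identical copies, as are Apol9a and Apol9b, so reads may be split between them.

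Most genes of the MHC class I peptide route rose, and no class II gene was called. Of 20 genes of this route tested, 17 were higher (85%) and none lower, with a median log2FC of 2.83. H2-K1, a class I heavy chain, stood at 227, 172, 198 and 189 CPM untreated and 1256, 1219, 1075 and 1209.9 CPM with IFN-γ (log2FC 2.59 ± 0.07, edgeR adjusted p = 8.6e-59). B2m, the light chain, was at 2640.3, 2466, 2927 and 2729.6 CPM untreated and 7422, 7389, 6632 and 7459 CPM with IFN-γ (log2FC 1.43 ± 0.05, edgeR adjusted p = 2e-50). The immunoproteasome subunits Psmb8 and Psmb9 and the transporter Tap1 rose by log2FC 4.54 ± 0.13, 5.18 ± 0.15 and 4.2 ± 0.11. Nlrc5, the activator of class I genes, went from 6.03 ± 1.896 to 100.5 ± 12.6 CPM (log2FC 4.03 ± 0.21, edgeR adjusted p = 8e-33). The 3 members not called were general chaperones of the endoplasmic reticulum: Calr, Canx and Pdia3 had log2FC of -0.06 ± 0.07, -0.07 ± 0.05 and 0.03 ± 0.06. Among 37 proteasome subunits collected by name after their values were seen, the 3 immunoproteasome subunits Psmb8, Psmb9 and Psmb10 were at log2FC 3.77 to 5.18, the other 4 called higher at 0.25 to 0.39, and 2 were lower. Class II genes were detected. Cd74, the class II invariant chain, was at 150.0 ± 14.99 CPM untreated and 168 ± 16.6 CPM with IFN-γ (log2FC 0.16 ± 0.09, edgeR adjusted p = 0.352) and H2-Aa at 47.6 ± 8.54 CPM untreated and 53.1 ± 4.27 CPM with IFN-γ (log2FC 0.12 ± 0.15, edgeR adjusted p = 0.753), and 0 of 5 class II genes tested were called.

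Most antiviral and sensing genes also rose. Of 36 antiviral effectors tested 35 were higher (97.2%), the exception being Ifitm2, at a median log2FC of 2.24. Zbp1, a sensor of Z-form nucleic acid, went from 4.67 ± 0.8499 to 245 ± 25.6 CPM (log2FC 5.71 ± 0.18, edgeR adjusted p = 1.5e-50), and Ifitm3, which blocks viral entry, from 503 ± 55.5 to 1613 ± 49.4 CPM (log2FC 1.68 ± 0.06, edgeR adjusted p = 1.1e-47). Of 10 PARPs and partners, 7 were higher (70%), led by Parp9, Parp14 and Dtx3l at log2FC 3.41 ± 0.15, 3.33 ± 0.18 and 3.1 ± 0.15, and 1 was lower (10%). The lower one was Parp1, which binds DNA breaks (log2FC -0.36 ± 0.12, edgeR adjusted p = 0.0338), with its call lost with DESeq2 and without IFN-γ wells 2 or 4 or untreated wells 1 or 3 (adjusted p = 0.0502 to 0.261). Of 13 genes of DNA sensing and inflammasomes 10 were higher (76.9%) and 1 lower (7.69%). Il18bp, the secreted antagonist of interleukin-18, had 0 to 3 counts in the untreated wells, against 157 to 256 after IFN-γ, a ratio of 90.96 (95% interval 47.7 to 199.7, exact Clopper-Pearson). Tmem173, which encodes STING, was at 91.7 ± 9.56 CPM untreated and 175 ± 7.76 CPM with IFN-γ (log2FC 0.93 ± 0.10, edgeR adjusted p = 3.1e-13). The lower member was the alarmin Il33, at 329 ± 11.3 CPM untreated and 276 ± 8.99 CPM with IFN-γ (log2FC -0.25 ± 0.07, edgeR adjusted p = 0.0164), whose call was lost with DESeq2 (adjusted p = 0.0699) and without IFN-γ well 1 or untreated well 3 (edgeR adjusted p = 0.0598 and 0.0703).

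**Figure D2:**
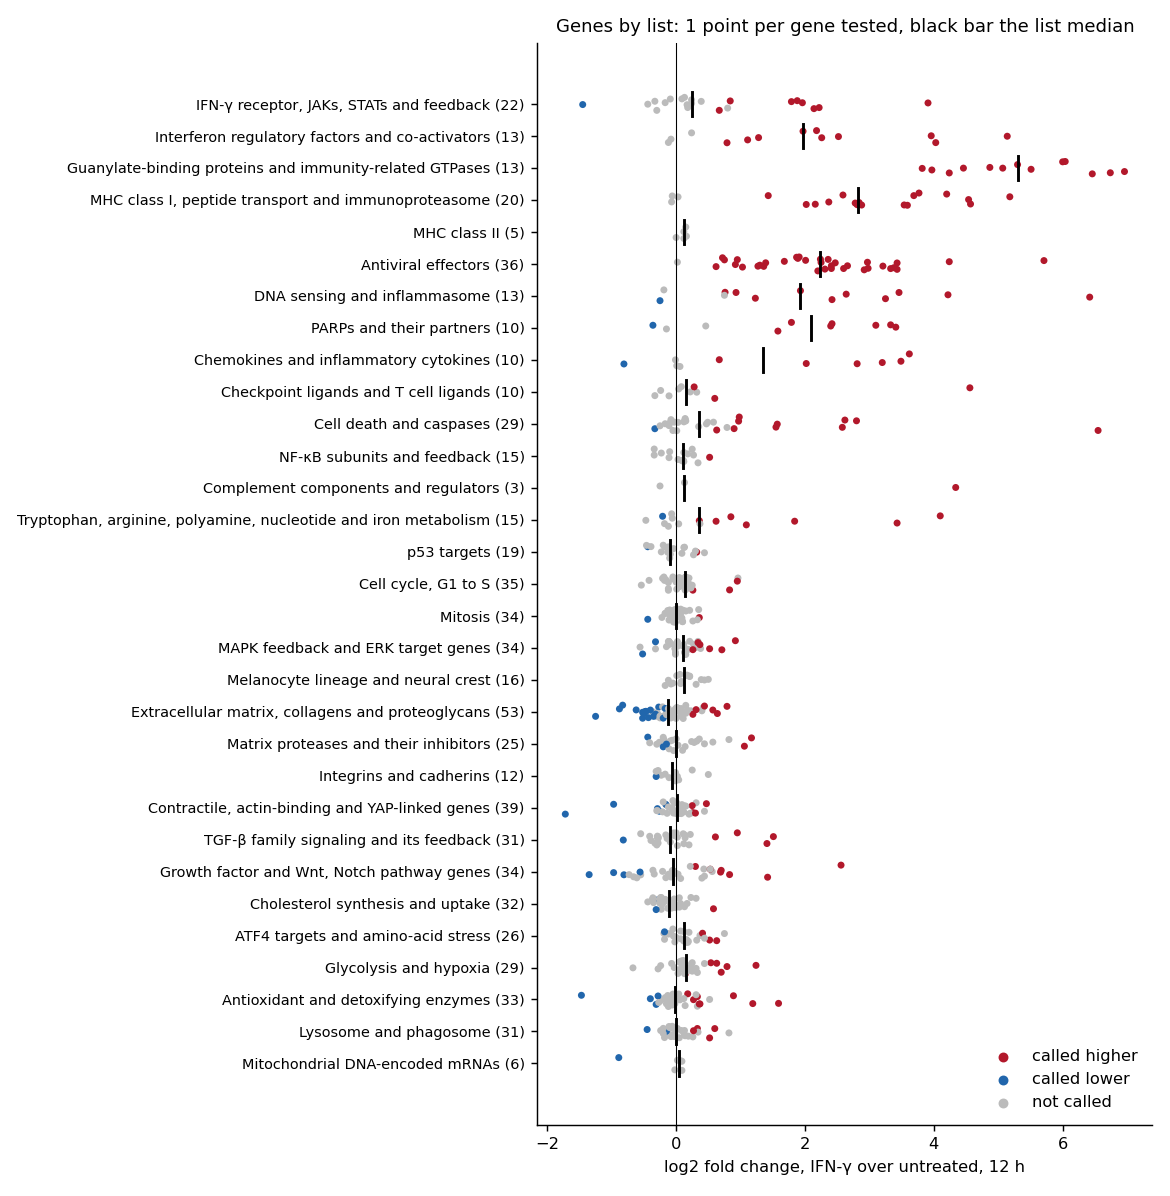
Each point is 1 tested gene of a list, placed by its log2 fold change, IFN-γ over untreated at 12 h, with red for called higher, blue for called lower, gray for not called and a black bar at the list median; the number tested is in parentheses. GTPase, class I and antiviral lists sit to the right, the extracellular matrix list has 17 blue points, and the mitosis, melanocyte and cholesterol lists stay around 0.

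Of the 577 higher genes, 477 belonged to none of the 8 interferon lists. Those lists held only 132 of the 8971 genes tested, of which 100 were higher and 3 lower. Lists of other kinds held some of the rest, such as Cxcl10, Cd274 and Apol6. A place outside the interferon lists thus does not set a gene apart from the interferon response. Ly6a, also called Sca-1, stood at 43.6, 46.7, 34.1 and 25.9 CPM untreated and 1369, 1250.5, 1015 and 1199.9 CPM with IFN-γ, about 31-fold higher (log2FC 4.96 ± 0.09, edgeR adjusted p = 1.5e-70). Ly6c1 had 3 to 7 counts in the untreated wells, against 169 to 257 after IFN-γ (log2FC 5.59 ± 0.19, edgeR adjusted p = 1.8e-48), and Ly6e was at 257 ± 25.6 CPM untreated and 869 ± 65.7 CPM with IFN-γ (log2FC 1.76 ± 0.07, edgeR adjusted p = 6.4e-44). Wars, which charges tRNA with tryptophan, stood at 84.8, 77.2, 87.02 and 95.2 CPM untreated and 1489, 1445, 1509 and 1448 CPM with IFN-γ (log2FC 4.1 ± 0.07, edgeR adjusted p = 7.3e-73). Of 17 aminoacyl-tRNA synthetases collected by name after their values were seen, 3 were higher (17.6%), the other two being Kars at log2FC 0.60 ± 0.07 and Rars at 0.22 ± 0.07, and the call of Rars was lost with DESeq2, with no filter and without IFN-γ wells 1, 2 or 3 or untreated wells 1, 2 or 4 (adjusted p = 0.0518 to 0.192). Serping1, the inhibitor of complement C1, was at 6.23, 8.98, 13.2 and 16.5 CPM untreated and 211, 221, 208 and 227 CPM with IFN-γ (log2FC 4.34 ± 0.15, edgeR adjusted p = 2.4e-46). Other enzymes that rose were Lap3, an aminopeptidase, at 216 ± 17.4 CPM untreated and 772 ± 42.2 CPM with IFN-γ (log2FC 1.84 ± 0.07, edgeR adjusted p = 4e-46), and the nucleoside phosphorylases Upp1 and Pnp, with log2FC 1.09 ± 0.07 and 0.85 ± 0.08. AA467197, also called Nmes1, was at 308 ± 18.3 CPM untreated and 903 ± 72.05 CPM with IFN-γ (log2FC 1.55 ± 0.07, edgeR adjusted p = 2.4e-40).

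Secreted signals rose for some ligands and not for others. Of 10 chemokines and inflammatory cytokines tested, 6 were higher (60%) and 1 lower (10%). Ccl2, which draws monocytes, stood at 80.2, 65.6, 70.5 and 65.8 CPM untreated and 879, 857, 638 and 827 CPM with IFN-γ (log2FC 3.49 ± 0.10, edgeR adjusted p = 3.7e-56). Its neighbor in function Ccl7 had 0 to 5 counts in the untreated wells, against 16 to 28 after IFN-γ. Cxcl10, which draws T cells, was at 33.97 ± 6.29 CPM untreated and 239 ± 55.7 CPM with IFN-γ (log2FC 2.81 ± 0.14, edgeR adjusted p = 2.2e-35), whereas Cxcl9, a ligand of the same receptor, was at 41.5 ± 9.296 CPM untreated and 43.1 ± 4.56 CPM with IFN-γ (log2FC 0.06 ± 0.17, edgeR adjusted p = 0.904). Cx3cl1 was at 32.03 ± 4.08 CPM untreated and 132 ± 8.403 CPM with IFN-γ (log2FC 2.02 ± 0.14, edgeR adjusted p = 1.2e-24). The pair Il15 and Il15ra, which together are presented to NK and T cells, had 2 counts and 0 to 2 counts in the untreated wells, against 20 to 26 and 16 to 35 after IFN-γ, ratios of 13.1 (95% interval 6.37 to 31.1, exact Clopper-Pearson) and 21.3 (95% interval 8.84 to 67.1, exact Clopper-Pearson). Cxcl12 went the other way, from 44.02 ± 4.13 to 24.5 ± 5.35 CPM (log2FC -0.81 ± 0.18, edgeR adjusted p = 0.00056). Among checkpoint and T cell ligands, 3 of 10 were higher (30%): Cd274, which encodes PD-L1, had 2 to 6 counts in the untreated wells, against 62 to 112 after IFN-γ (log2FC 4.56 ± 0.24, edgeR adjusted p = 7.7e-32), and Cd47, the "do not eat me" signal, was at 150.4 ± 20.1 CPM untreated and 229 ± 15.8 CPM with IFN-γ (log2FC 0.60 ± 0.09, edgeR adjusted p = 4.5e-08). The third, Vcam1, had log2FC 0.28 ± 0.09, a call lost with DESeq2 and without IFN-γ wells 1, 2 or 3 or untreated wells 2 or 4 (adjusted p = 0.0642 to 0.156). Il1rl1, the receptor of Il33, was at 34.3 ± 2.19 CPM untreated and 112 ± 11.4 CPM with IFN-γ (log2FC 1.72 ± 0.14, edgeR adjusted p = 4.5e-20) and was chosen after its values were seen.

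Of 29 genes of cell death tested, 10 were higher (34.5%) and 1 lower (3.45%), against 6.43% and 2.82% over all genes. Apol6, an apolipoprotein L, had 0 to 2 counts in the untreated wells, against 58 to 103 after IFN-γ, a ratio of 110.5 (95% interval 37.5 to 539, exact Clopper-Pearson). Mlkl, the effector of necroptosis, was at 44.8 ± 4.05 CPM untreated and 132 ± 11.2 CPM with IFN-γ (log2FC 1.57 ± 0.12, edgeR adjusted p = 2.4e-20), and the caspase Casp12 rose by log2FC 2.62 ± 0.16. The BCL2 family survival genes Bcl2l1 and Mcl1 had log2FC of 0.01 ± 0.09 and 0.12 ± 0.09 and were not called.

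Some genes of developmental and growth pathways rose, although the medians of their lists were near 0. Tcf7, a transcription factor of the Wnt pathway known from T cells, stood at 44.4, 49.4, 38.6 and 50.5 CPM untreated and 268, 256, 296 and 259.5 CPM with IFN-γ (log2FC 2.56 ± 0.10, edgeR adjusted p = 1.5e-41). The activin antagonist Fst stood at 605, 598, 619 and 643 CPM untreated and 1643, 1553, 1674 and 1665 CPM with IFN-γ (log2FC 1.41 ± 0.05, edgeR adjusted p = 3e-43). Its relative Fstl1 was at 231 ± 3.66 CPM untreated and 444 ± 29.04 CPM with IFN-γ (log2FC 0.95 ± 0.07, edgeR adjusted p = 3.3e-22). Of 31 TGF-β family genes tested, with a median log2FC of -0.09, 4 were higher (12.9%, Inhbb, Fst, Fstl1 and Bmp2) and 1, Bmp4, was lower (3.23%), against 6.43% and 2.82% over all genes, while Inhba, the Activin-A subunit, was at 61.5 ± 6.89 CPM untreated and 61.6 ± 11.3 CPM with IFN-γ (log2FC 0.00 ± 0.14, edgeR adjusted p = 0.994). Bmp4 had 19 to 44 counts in the untreated wells, against 11 to 22 after IFN-γ. Its call was lost with DESeq2 and without IFN-γ well 4 or untreated wells 1 or 2 (adjusted p = 0.0594 to 0.197). Fgf10, a growth factor chosen after its values were seen, stood at 24.9, 25.1, 25.3 and 19.98 CPM untreated and 72.9, 69.1, 66.1 and 81.8 CPM with IFN-γ (log2FC 1.6 ± 0.17, edgeR adjusted p = 5.4e-14).

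Some genes known from neurons rose and others fell. Among guidance cues, Ntn1 had 4 to 8 counts in the untreated wells, against 29 to 42 after IFN-γ (log2FC 2.83 ± 0.27, edgeR adjusted p = 7e-16), and Slit2 stood at 38.9, 34.1, 33.05 and 49.4 CPM untreated and 124, 146, 133 and 133 CPM with IFN-γ (log2FC 1.8 ± 0.13, edgeR adjusted p = 1.1e-22). Tubb3, the neuronal β-tubulin, stood at 33.5, 29.6, 29.7 and 34.1 CPM untreated and 188, 215, 182 and 217 CPM with IFN-γ (log2FC 2.66 ± 0.12, edgeR adjusted p = 1.1e-37). Genes of these families that fell included receptors. Unc5b, a netrin receptor, was at 193 ± 15.6 CPM untreated and 138 ± 6.52 CPM with IFN-γ (log2FC -0.47 ± 0.09, edgeR adjusted p = 2.7e-05), Plxna4, a semaphorin co-receptor, at 45.1 ± 6.09 CPM untreated and 27.99 ± 4.04 CPM with IFN-γ (log2FC -0.69 ± 0.18, edgeR adjusted p = 0.0034), and Dpysl3, which transmits semaphorin signals to the cytoskeleton, stood at 275, 316, 283 and 307 CPM untreated and 179.8, 184, 199 and 202 CPM with IFN-γ (log2FC -0.62 ± 0.08, edgeR adjusted p = 7.5e-11). Among 25 tested genes of the netrin, slit, semaphorin, ephrin and collapsin response families, 2 were higher (8%) and 4 lower (16%), against 6.43% and 2.82% over all genes, with a median log2FC of -0.04. The neurofilament light chain Nefl stood at 672, 703, 647 and 677 CPM untreated and 315, 335, 309 and 285 CPM with IFN-γ. The groups were far apart, and Nefl dropped by 54.1% (log2FC -1.12 ± 0.06, edgeR adjusted p = 1.5e-29), the smallest adjusted p of the genes that fell. The medium chain Nefm fell with it, from 52.7 ± 14.1 to 28.96 ± 1.92 CPM (log2FC -0.90 ± 0.18, edgeR adjusted p = 4.8e-05). Slit2, Ntn1, Tubb3, Unc5b, Plxna4 and Dpysl3 and the family list were chosen after their values were seen, while Nefl and Nefm came from the naming rule.

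**Figure D3:**
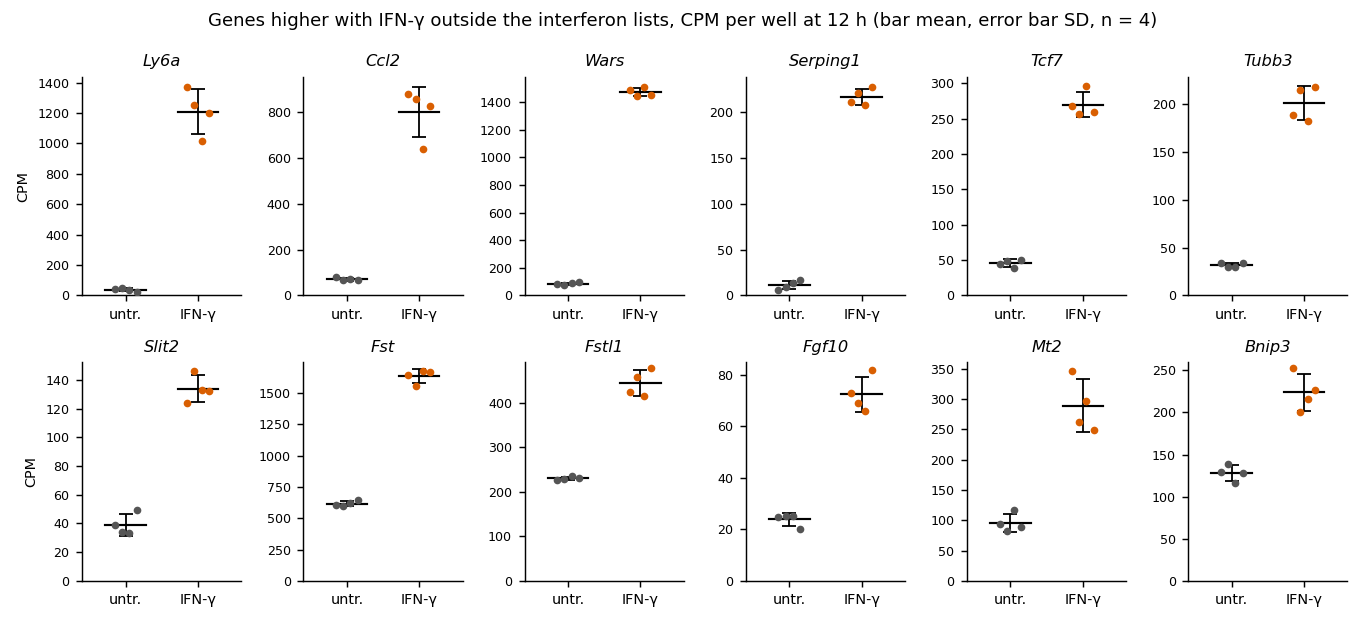
CPM of 12 genes that rose outside the interferon lists, in each of the 4 untreated wells (gray) and 4 IFN-γ wells (orange) at 12 h, with the mean as a bar and the SD as an error bar, on linear axes that start at 0. In each panel the 2 groups do not overlap, from Ly6a, about 31-fold higher, to Bnip3, 1.73-fold higher.

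Among the gene lists, that of the extracellular matrix held the most genes that fell. Of 53 matrix genes tested, 17 were lower (32.1%) and 6 higher (11.3%), against 2.82% lower and 6.43% higher over all genes, and the list's median log2FC was -0.12. Both fibril and network collagens were among them. Col6a1 stood at 202, 223, 178 and 234 CPM untreated and 103, 117, 137 and 112 CPM with IFN-γ (log2FC -0.83 ± 0.10, edgeR adjusted p = 7.6e-12). Col6a2, which joins it in type VI collagen, stood at 91.05, 80.8, 72.7 and 70.5 CPM untreated and 30.4, 39.8, 35.8 and 28.4 CPM with IFN-γ (log2FC -1.25 ± 0.16, edgeR adjusted p = 3e-10). The third chain, Col6a3, was not called and was at 284 ± 27.7 CPM untreated and 316 ± 9.35 CPM with IFN-γ (log2FC 0.15 ± 0.07, edgeR adjusted p = 0.234). Col3a1, of fibrils, stood at 219, 196, 231 and 245 CPM untreated and 95.9, 126, 114 and 139 CPM with IFN-γ (log2FC -0.88 ± 0.09, edgeR adjusted p = 6.7e-14). The basement membrane chains Col4a1 and Col4a2 fell with log2FC -0.27 ± 0.07 and -0.47 ± 0.08, and Col5a2 and Col18a1 with -0.48 ± 0.12 and -0.43 ± 0.08. Counted by name, after their values were seen, 9 of 15 tested collagen chains were lower (60%) and 1, Col8a1 (6.67%), was higher at log2FC 0.45 ± 0.08. The most negative log2FC among them was that of Col15a1, with 9 to 19 counts in the untreated wells, against 2 to 5 after IFN-γ (log2FC -1.75 ± 0.41, edgeR adjusted p = 0.00101). Col1a1 was at 43.5 ± 3.0 CPM untreated and 34.1 ± 4.396 CPM with IFN-γ (log2FC -0.36 ± 0.17, edgeR adjusted p = 0.216).
The Col6a1 promoter, chr10:76725995-76726294 on the minus strand, is shown as that of a gene that fell, with an AP-1 match that starts 90 bases before the start and no GAS or ISRE match in this window.
Col6a1: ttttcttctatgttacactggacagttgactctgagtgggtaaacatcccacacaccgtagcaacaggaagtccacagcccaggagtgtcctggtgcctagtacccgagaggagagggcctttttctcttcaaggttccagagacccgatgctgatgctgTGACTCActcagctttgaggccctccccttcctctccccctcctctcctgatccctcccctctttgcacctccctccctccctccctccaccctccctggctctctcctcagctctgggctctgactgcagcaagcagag

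Of the matrix genes that are not collagens, Sparc and Spp1 were among those that fell. Sparc, a collagen-binding glycoprotein, stood at 2717, 2623, 2550.1 and 2554 CPM untreated and 1847, 1873, 1802 and 2005 CPM with IFN-γ (log2FC -0.47 ± 0.05, edgeR adjusted p = 9.2e-15). Spp1, osteopontin, stood at 7116, 7533, 6740.4 and 6603 CPM untreated and 5428, 5425, 5176 and 5176 CPM with IFN-γ (log2FC -0.40 ± 0.05, edgeR adjusted p = 2.9e-11). Dmp1, of the same family of acidic mineral-binding phosphoproteins, stood at 90.3, 126, 111 and 103 CPM untreated and 52.2, 36.6, 50.9 and 47.6 CPM with IFN-γ, which is a drop of 56.4% (log2FC -1.2 ± 0.14, edgeR adjusted p = 7.6e-12). Matn2, Sdc1 and Nid1 were lower with log2FC -0.50 ± 0.10, -0.52 ± 0.12 and -0.52 ± 0.15. The call of Nid1 was lost with DESeq2 and without IFN-γ well 1 or untreated wells 2 or 4 (adjusted p = 0.0586 to 0.112). Csgalnact1, which starts chondroitin sulfate chains, was at 47.1 ± 7.29 CPM untreated and 25.1 ± 3.08 CPM with IFN-γ (log2FC -0.91 ± 0.18, edgeR adjusted p = 4.8e-05). Not all of the matrix fell. Fibronectin Fn1 was at 1158 ± 138 CPM untreated and 1035 ± 66.6 CPM with IFN-γ (log2FC -0.16 ± 0.06, edgeR adjusted p = 0.0564), Bgn at 641 ± 15.2 CPM untreated and 642 ± 21.9 CPM with IFN-γ (log2FC 0.00 ± 0.06, edgeR adjusted p = 0.985), and Agrn, Loxl1 and Ccn1 rose with log2FC 0.79 ± 0.17, 0.57 ± 0.10 and 0.44 ± 0.08. Of 25 matrix proteases and inhibitors tested 2 were higher (8%) and 3 lower (12%). Adamts1, a protease of proteoglycans, rose from 23.1 ± 5.21 to 53.1 ± 8.86 CPM (log2FC 1.17 ± 0.18, edgeR adjusted p = 1.1e-07). Among 12 integrins and cadherins 1 was called (8.33%, near the 9.25% over all genes), Itgav at log2FC -0.31 ± 0.10. That call was lost with DESeq2, with all 32 wells fitted and with the replicate number as a block. It was also lost without IFN-γ wells 2, 3 or 4 or untreated wells 1, 2 or 3 (adjusted p = 0.0512 to 0.152 over all these settings).

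**Figure D4:**
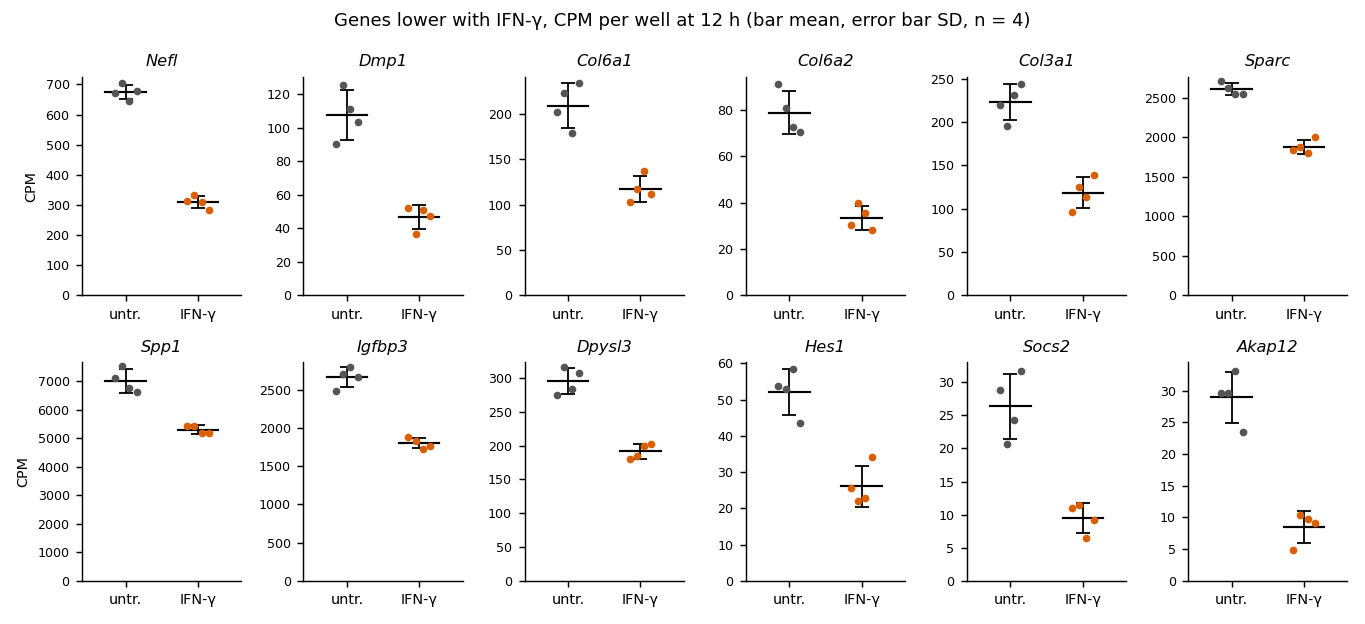
CPM of 12 genes that fell, in each of the 4 untreated wells (gray) and 4 IFN-γ wells (orange) at 12 h, with the mean as a bar and the SD as an error bar, on linear axes that start at 0. The groups do not overlap in any panel; Spp1 dropped by 24.3% and Akap12, at the lowest levels, by 69.7%.

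Of 34 genes of growth factors and of the Wnt and Notch pathways, 7 were higher (20.6%) and 4 lower (11.8%), against 6.43% and 2.82% over all genes, with a median log2FC of -0.05. Genes named for a fall, from this list and outside it, follow. Igfbp3, which binds insulin-like growth factors outside the cell, stood at 2489, 2706, 2805 and 2672 CPM untreated and 1887, 1836, 1726 and 1768 CPM with IFN-γ, a drop of 32.4% (log2FC -0.56 ± 0.05, edgeR adjusted p = 2.9e-17). Hes1, a repressor downstream of Notch, stood at 53.7, 52.99, 58.4 and 43.5 CPM untreated and 25.5, 21.98, 22.8 and 34.2 CPM with IFN-γ (log2FC -0.97 ± 0.18, edgeR adjusted p = 1.2e-05). Akap12, a scaffold of protein kinases A and C, stood at 29.6, 29.6, 33.05 and 23.5 CPM untreated and 4.86, 10.5, 9.76 and 9.18 CPM with IFN-γ. These are 4 to 38 counts per well, and the groups did not overlap (log2FC -1.72 ± 0.27, edgeR adjusted p = 3e-07). Sertad4, a SERTA domain protein, was at 26.4 ± 8.64 CPM untreated and 10.5 ± 3.35 CPM with IFN-γ (log2FC -1.27 ± 0.26, edgeR adjusted p = 0.00013). Prkag2, a regulatory subunit of AMP-activated kinase, was at 21.6 ± 5.197 CPM untreated and 9.56 ± 2.202 CPM with IFN-γ (log2FC -1.12 ± 0.28, edgeR adjusted p = 0.00273). The receptor Egfr fell from 7 to 18 counts to 3 to 6 counts. Its call was lost with DESeq2 and without IFN-γ wells 2 or 4 or untreated well 1 (adjusted p = 0.061 to 0.109). Others lower by the naming rule were Tenm4, Polr3g and Nol8, each at 28 or fewer counts in any well. Their calls were lost, for Tenm4, with DESeq2 and without IFN-γ well 3 (adjusted p = 0.056 to 0.0719), for Polr3g, with DESeq2 and without IFN-γ wells 1 or 2 or untreated well 3 (adjusted p = 0.0547 to 0.23), and for Nol8, with DESeq2 and without IFN-γ wells 1 or 2 or untreated well 1 (adjusted p = 0.0544 to 0.0932).

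Metabolic and stress lists had calls in both directions, except that of glycolysis and hypoxia, which had none lower. Of 33 antioxidant and detoxifying enzymes, 8 were higher (24.2%) and 4 lower (12.1%), against 6.43% and 2.82% over all genes. The metal-binding protein Mt2 stood at 94.2, 82.6, 117 and 88.2 CPM untreated and 347, 263, 297 and 249 CPM with IFN-γ (log2FC 1.59 ± 0.11, edgeR adjusted p = 7.5e-25), and Txnip, which binds thioredoxin, was at 43.3 ± 9.95 CPM untreated and 98.3 ± 14.96 CPM with IFN-γ (log2FC 1.19 ± 0.14, edgeR adjusted p = 3.1e-11). Aldh3a1, an aldehyde dehydrogenase, stood at 17.1, 20.7, 27.5 and 22.3 CPM untreated and 10.9, 8.37, 5.42 and 6.68 CPM with IFN-γ (log2FC -1.47 ± 0.30, edgeR adjusted p = 0.00013). Mgst3, a microsomal glutathione transferase, fell from 387 ± 31.2 to 311 ± 16.9 CPM (log2FC -0.31 ± 0.07, edgeR adjusted p = 0.00057). Of 29 genes of glycolysis and hypoxia 6 were higher (20.7%) and none lower, led by the hexokinase Hk2 at 29.3 ± 4.65 CPM untreated and 68.4 ± 2.54 CPM with IFN-γ (log2FC 1.24 ± 0.16, edgeR adjusted p = 2.5e-10). Bnip3, a mitophagy receptor, stood at 129, 139, 117 and 128 CPM untreated and 253, 201, 216 and 227 CPM with IFN-γ (log2FC 0.79 ± 0.09, edgeR adjusted p = 1.9e-12). Of 15 genes of tryptophan, arginine, polyamine, nucleotide and iron metabolism 7 were higher (46.7%) and 1 (6.67%), ferritin light chain Ftl1, was lower, from 1674 ± 85.4 to 1452 ± 67.3 CPM (log2FC -0.21 ± 0.05, edgeR adjusted p = 0.00184).

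Counts in other programs are read against the 6.43% higher and 2.82% lower over all genes. In the cell cycle, 3 of 35 genes of the passage from G1 to S were higher (8.57%, Rbl1, Cdk6 and Ccnd1) and none lower, and 1 of 34 mitosis genes was higher and 1 lower (2.94% each). Cdk6 was at 88.2 ± 9.99 CPM untreated and 158 ± 6.44 CPM with IFN-γ (log2FC 0.83 ± 0.10, edgeR adjusted p = 6.8e-11), Pcna at 172 ± 4.25 CPM untreated and 179.5 ± 8.85 CPM with IFN-γ (log2FC 0.06 ± 0.09, edgeR adjusted p = 0.79) and Mki67 at 147 ± 6.43 CPM untreated and 155 ± 16.6 CPM with IFN-γ (log2FC 0.07 ± 0.10, edgeR adjusted p = 0.775). Of 19 p53 targets 1 was higher and 1 lower (5.26% each), namely Cdkn1a, the cell cycle inhibitor p21, at log2FC 0.32 ± 0.11 and Plk3 at -0.44 ± 0.15. The call of Cdkn1a was lost with DESeq2, with all 32 wells fitted and without IFN-γ wells 1, 2 or 3 or untreated wells 1 or 4 (adjusted p = 0.0514 to 0.169). That of Plk3 was lost with DESeq2, with all 32 wells fitted and without IFN-γ wells 1, 2 or 4 or untreated wells 1, 2 or 3 (adjusted p = 0.0621 to 0.153). Of 15 NF-κB genes 1 (6.67%), Cyld, was called higher, a call lost with DESeq2, with no filter and with the replicate number as a block. It was also lost without IFN-γ wells 2, 3 or 4 or untreated wells 1, 2, 3 or 4 (adjusted p = 0.0514 to 0.208 over all these settings). Nfkb1 and Nfkbia were at log2FC 0.27 ± 0.10 and -0.23 ± 0.16. None of the 16 melanocyte and neural crest genes tested was called: Pmel was at 119 ± 13.7 CPM untreated and 134 ± 11.01 CPM with IFN-γ (log2FC 0.17 ± 0.10, edgeR adjusted p = 0.387), Dct at 72.4 ± 9.06 CPM untreated and 74.2 ± 3.28 CPM with IFN-γ (log2FC 0.06 ± 0.13, edgeR adjusted p = 0.883) and Axl at 993 ± 46.9 CPM untreated and 1044 ± 51.2 CPM with IFN-γ (log2FC 0.07 ± 0.05, edgeR adjusted p = 0.511). Of 32 genes of cholesterol synthesis and uptake 1 was higher (3.12%) and 2 lower (6.25%), of 26 ATF4 targets 3 (11.5%) and 1 (3.85%), and of 31 lysosomal genes 4 (12.9%) and 2 (6.45%). Among families collected by name, 0 of 74 cytosolic ribosomal proteins were higher and 2 lower (2.7%), and of 75 respiratory chain subunits 1 was higher and 1 lower (1.33% each). At this depth small changes in these programs may not have been detectable. In data simulated for this comparison, 25 of 50 genes set to a log2FC of 0.5 were called (50%). Of 50 genes set to a log2FC of 1, 44 were called (88%). The changed genes, 50 at each log2FC of 0.5, 1, 2 and 3, were drawn from all 8971 genes and not from these lists. Fewer genes were changed than were called in the data, which makes the adjusted threshold stricter. These shares are thus a guide for genes in general and not for any list.

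Feedback and target genes of the MAPK pathway were mixed. Of 34 tested 6 were higher (17.6%) and 2 lower (5.88%), against 6.43% and 2.82% over all genes. The immediate early factors Junb and Egr1 rose with log2FC 0.92 ± 0.19 and 0.71 ± 0.16, and Dusp6, the phosphatase that feeds back on ERK, was at 162 ± 3.84 CPM untreated and 233 ± 20.3 CPM with IFN-γ (log2FC 0.52 ± 0.09, edgeR adjusted p = 5.1e-06). Etv5, another ERK target, went from 96.7 ± 13 to 68.01 ± 13.8 CPM (log2FC -0.52 ± 0.13, edgeR adjusted p = 0.00138) with overlapping wells. Among 39 contractile and YAP-linked genes 4 were higher (10.3%) and 5 lower (12.8%). Acta2 and Tpm1, of the contractile apparatus, were lower with log2FC -0.29 ± 0.07 and -0.26 ± 0.05, and the actin-binding Cnn3 and Zyx higher with 0.47 ± 0.07 and 0.30 ± 0.06.

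A further call that was lost without 1 well, as were some named above, was that of a mitochondrial mRNA. The mitochondrial mRNA mt-Co1 stood at 506, 319.8, 194 and 1146 CPM untreated and 384, 224, 302 and 252 CPM with IFN-γ, with untreated well 4 far above the rest. It was called lower (log2FC -0.89 ± 0.18, edgeR adjusted p = 0.00013), yet without untreated well 4 its log2FC was -0.28 (edgeR adjusted p = 0.348), and DESeq2 gave an adjusted p of 0.362. The other 5 mitochondrial mRNAs tested had log2FC between -0.02 and 0.09.

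The same genes were followed in wells outside the 2 groups compared. Cells given both factors were set against cells given Activin-A alone at 12 h, which shares no well with the main comparison although both come from 1 fit of 16 wells. There 554 genes were higher (6.18% of those tested) and 309 lower (3.44%), and DESeq2 called 170 lower. Of the 577 higher genes, 561 (97.2%) had a positive log2FC there, against 48.7% of all genes, and 402 were called higher, which is 69.7% of the 577 and 72.6% of the 554. 1 gene was called in the opposite direction, Cth, an enzyme of cysteine synthesis, with log2FC 0.52 ± 0.15 in the main comparison and -0.50 ± 0.14 with Activin-A present. Its call in the main comparison was lost with DESeq2 and without IFN-γ well 4 or untreated well 1 (adjusted p = 0.0586 to 0.0803). Of the 253 lower genes, 226 (89.3%) had a negative log2FC, against 51.3% of all genes, and 116 were called lower, which is 45.8% of the 253 and 37.5% of the 309. The medians of the same genes there were 0.64 for the higher and -0.30 for the lower. The genes were chosen by the main comparison, which favors larger values in it. Nefl, Col6a1, Col3a1, Sparc and Igfbp3 were lower there too, with log2FC -0.74 ± 0.08, -1.06 ± 0.11, -0.90 ± 0.09, -0.55 ± 0.05 and -0.71 ± 0.05. Aldh3a1 and Sertad4 had -0.61 ± 0.35 and -0.48 ± 0.21 and were not called in the presence of Activin-A.

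More of the higher genes than of the lower genes were already called at 4 h. In the 4 h wells 392 genes were higher (4.29% of 9137 tested) and 70 lower (0.766%), and DESeq2 called 45 lower. Of the 577 genes higher at 12 h, 330 were called higher at 4 h, which is 57.2% of the 577 and 84.2% of the 392. Of the 253 genes lower at 12 h, 31 were called lower at 4 h, which is 12.3% of the 253 and 44.3% of the 70, although 220 of 251 tested (87.6%) had a negative log2FC, against 51.5% of all genes. Their median log2FC was -0.44 at 12 h and -0.14 at 4 h. For the higher genes tested at 4 h the medians were 0.75 and 0.57. Both sets were chosen by their 12 h values, which favors the larger median at 12 h. The lower genes thus had smaller changes already at 12 h, and the difference between the 2 shares called at 4 h was not tested. The difference between the times was tested in 1 fit of all 32 wells, as the IFN-γ effect at 12 h minus that at 4 h, and 54 genes of 9332 were called (0.579%), 13 of them with a negative difference. This fell to 35 in all without untreated well 4 of 4 h, and the negative count to 5 without IFN-γ well 2 of 12 h, 6 without untreated well 2 of 12 h or untreated well 4 of 4 h, and 8 without IFN-γ well 1 of 12 h or IFN-γ well 1 or 2 of 4 h. Of the 54, 40 were higher at 12 h with a greater effect at 12 h, and 10 were lower at 12 h with a more negative effect. The 10 were Akap12, Dmp1, Nefl, Col3a1, Col6a1, Plac9a, Dpysl3, Igfbp3, Sparc and Tpgs2. The split by 12 h calls uses wells that also enter the difference, which favors a larger effect at 12 h in both directions.

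Individual genes differed in their log2FC at the 2 times, each taken against the untreated wells of that time. Irf1 had log2FC 4.22 ± 0.09 at 4 h and 3.96 ± 0.09 at 12 h, and the difference was not called (edgeR adjusted p = 0.81). H2-K1 had 0.82 ± 0.08 at 4 h and 2.59 ± 0.07 at 12 h, a difference of 1.78 ± 0.10. Ly6a, Ccl2 and Serping1 had 4 h values of 3.3 ± 0.10, 2.02 ± 0.09 and 2.23 ± 0.20 and differences of 1.67 ± 0.18, 1.49 ± 0.16 and 2.12 ± 0.32. Irgm1 was the 1 gene higher at 12 h with a smaller effect then, by -0.55 ± 0.14. Among genes that fell, Col3a1 had -0.18 ± 0.10 at 4 h and -0.88 ± 0.09 at 12 h, a difference of -0.69 ± 0.14, and Akap12 -0.20 ± 0.27 and -1.72 ± 0.27, a difference of -1.51 ± 0.39. Hes1, by contrast, had -0.98 ± 0.16 at 4 h and -0.97 ± 0.18 at 12 h, and its difference was not called (edgeR adjusted p = 0.999).

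**Figure D5:**
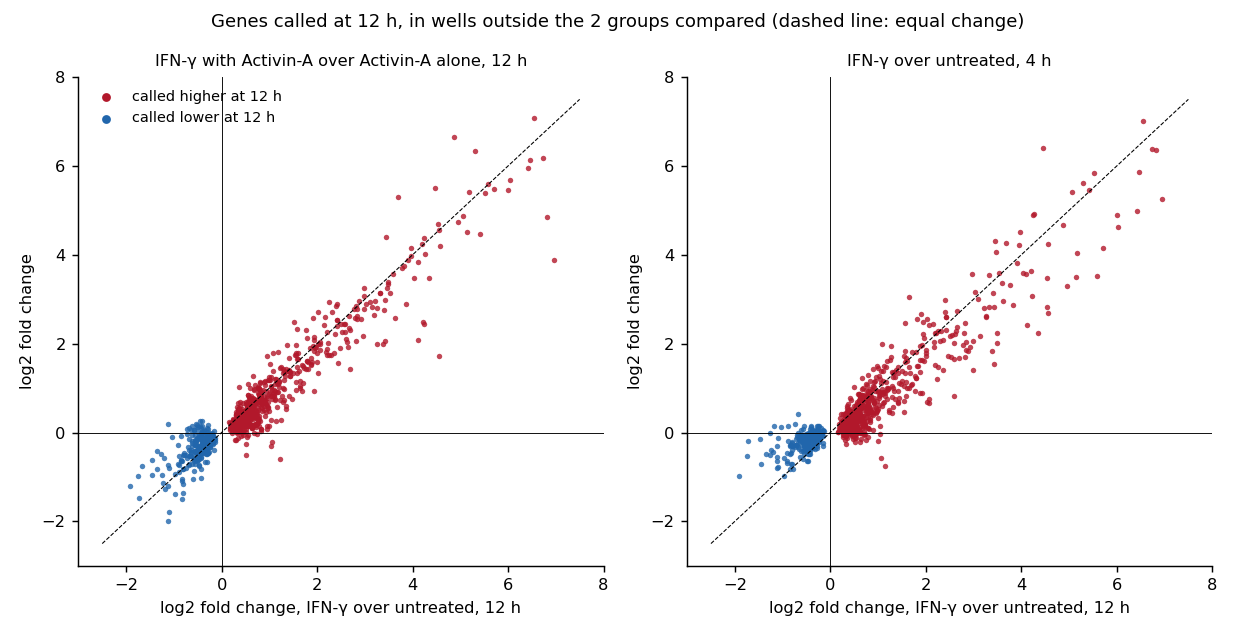
Genes called at 12 h (red higher, blue lower), with their log2 fold change at 12 h on the horizontal axis of both panels and, on the vertical axis, the log2 fold change of IFN-γ with Activin-A over Activin-A alone at 12 h (left) or of IFN-γ over untreated at 4 h (right); the dashed line marks equal change. Lower genes lie nearer to 0 at 4 h, with a median of -0.14, than with Activin-A at 12 h, with a median of -0.30.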

How the data were processed

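The authors aligned the BRB-seq reads with STAR 2.7.10b, counted them per gene with featureCounts and deposited the raw counts. Their own tests used DESeq2 1.36.0. Whether copies of 1 molecule were collapsed is not given in the sources used here, so intervals cover counting error only. The submitters' notes name build GRCm39, whereas the promoters come from RefSeq on GRCm38.p6, so they were matched by symbol alone. Gene names came from a table that held 12437 of the 12451 identifiers.

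The counts of the 16 wells at 12 h were fitted together in edgeR 4.0.16 (R 4.3.3) with TMM normalization, filterByExpr and the quasi-likelihood test, with Benjamini-Hochberg adjustment over all genes tested. The 4 h wells were fitted likewise, and the difference between times in all 32 wells. CPM values are TMM-normalized. Standard errors are the log2FC divided by the square root of F. The fit was tested on simulated data. DESeq2 1.42.0, other filters, thresholds, samples and a replicate block were alternatives. Within each of the 2 groups compared, no 2 wells were duplicates by a chi-square test of their counts.

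Members and lists were chosen with earlier results of these data known. The genes named by rule were the 10 highest and 15 lowest log2FC among called genes with a mean of at least 10 counts and no overlap between groups, up to 3 called members in each direction of every list, the 15 highest outside the interferon lists, and 8 pathway genes. As many of these as could be described by role are named, and the other genes in the text, as well as families collected by name, were chosen after their values were seen. Ly6, class I H2 and other near-identical genes may share reads. Lists are described by counts and medians, with no test of a list. Some genes of these lists are not reported here by name.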

Additional observations from a re-analysis of the deposited data

Results flagged for a closer look

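Among 314 pairs of a named gene and a group of 4 wells, 16 held 1 well far from the other 3 by Dixon's test, and chance alone marks about 1 in 20 such groups. In IFN-γ well 1 the marked levels were 396 CPM for Psmb9. In IFN-γ well 3 the marked levels were 6632 CPM for B2m and 54.2 CPM for Tgtp1. In IFN-γ well 4 the marked levels were 32.5 CPM for Cxcl12, 46.7 CPM for H2-Aa and 214 CPM for Il18bp. In untreated well 1 the marked levels were 0.778 CPM for Csf1r and 32.7 CPM for Psmb10. In untreated well 3 the marked levels were 5.51 CPM for Mitf and 16.5 CPM for Psmb8. In untreated well 4 the marked levels were 15.3 CPM for Adamts1, 1063 CPM for Axl, 19.98 CPM for Fgf10, 37.6 CPM for Il1rl1, 29.4 CPM for Prkag2 and 1.18 CPM for Tgtp1. Tgtp1 in the untreated wells was a single count.

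The IFN-γ effect differed between 12 h and 4 h by an edgeR test of the difference for 26 of the named genes. The log2 differences, 12 h minus 4 h, were positive with 2.41 for Ccl7, 2.12 for Serping1, 2.06 for Ly6c1, 1.78 for H2-K1, 1.67 for Ly6a, 1.49 for Ccl2, 0.84 for Ly6e, 0.78 for Mt2, 0.75 for B2m, 0.72 for Bnip3, 0.63 for Ifitm3, 0.61 for Gbp2, 0.59 for Cdkn1a, 0.55 for Wars and 0.42 for Fstl1. They were negative with -1.51 for Akap12, -0.75 for Dmp1, -0.69 for Col3a1, -0.66 for Dpysl3, -0.56 for Nefl, -0.55 for Col6a1, -0.55 for Irgm1, -0.55 for Plac9a, -0.45 for Tpgs2, -0.35 for Igfbp3 and -0.31 for Sparc. The negative difference of Irgm1 was that of a gene that rose at both times. A difference can also come from the untreated wells, as for Bnip3 and Cdkn1a. Bnip3 was at 226 CPM at 4 h and 224 CPM at 12 h with IFN-γ, and at 211 and 128 CPM untreated. Cdkn1a was at 128 and 137 CPM with IFN-γ and at 155 and 108 CPM untreated. By contrast, H2-K1 was at 396 and 1190 CPM with IFN-γ and at 223 and 197 CPM untreated. The other genes were not sorted in this way.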

How the results depend on the processing

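The 12 h comparison kept the direction of every called gene named in the text under all alternatives that gave it a value, and the count of lower genes was the most sensitive. DESeq2 called 144 genes lower in place of 253, an adjusted p under 0.01 left 135 lower, and a log2FC of at least 0.5 left 102 lower and 529 in all. With Activin-A present, DESeq2 called 569 genes in place of 863, with 170 lower in place of 309, and at 4 h it called 45 lower in place of 70. The cause was not tested. Leaving out 1 well in turn gave 689 to 771 genes at 12 h (498 to 551 higher and 191 to 229 lower), 728 to 777 with Activin-A and 412 to 439 at 4 h. The difference between times ranged from 35 genes (without untreated well 4 of 4 h) to 54, with 29 to 41 of positive and 5 to 15 of negative difference, where the fit of all wells gave 13 negative. The lowest negative count was without IFN-γ well 2 of 12 h. It was 6 without untreated well 2 of 12 h or untreated well 4 of 4 h, and 8 without IFN-γ well 1 of 12 h or IFN-γ wells 1 or 2 of 4 h. The median log2FC of all genes stayed between -0.02 and -0.01. With the replicate number as a block, 822 genes were called (574 higher and 248 lower), of which 807 were shared with the fit without it. Among the genes named in the text, the block ended the calls of Cyld (edgeR adjusted p = 0.0514) and Itgav (edgeR adjusted p = 0.0524), as stated beside them. Same-numbered wells did not deviate together, with correlations of 0.000897, 0.00698, -0.00158 and -0.00835, so the numbers were not read as pairs. The depth of about 853021 to 1285540 counts per well may limit calls among genes of few counts, which was not tested.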
